A study of Homo sapiens with 4 samples.

Results

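Cyclins are the regulatory subunits whose rise and fall times the cell cycle. D-type cyclins activate CDK4 and CDK6 in G1 and so start the phosphorylation of RB, E-type cyclins activate CDK2 at entry into S phase, cyclin A2 serves CDK2 and CDK1 through S phase and G2, and B-type cyclins drive mitosis with CDK1. Cyclin F binds no kinase and is instead the F-box subunit of an SCF ubiquitin ligase that marks S-phase and mitotic proteins for degradation. Cyclin D3 is the D-type cyclin on which germinal center B cells depend. The 9 genes described here are the cyclins CCND1, CCND2, CCND3, CCNE1, CCNE2, CCNA2, CCNB1, CCNB2 and CCNF, chosen by name from 25066 genes, and all 9 were among the 16945 genes tested.

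The cells were NUDUL1, a human diffuse large B cell lymphoma line of the germinal center subtype. A single-cell clone carried Cas9 under doxycycline control and had been transduced with the receptor Tbxa2r, which couples to Gα13, together with a Thy1.1 marker. Control cells expressed a control sgRNA and GNA13-deficient cells expressed 1 sgRNA against GNA13, the gene for Gα13, with Cas9 induced beforehand. Cells of both genotypes were treated with 10 nM U46619, a stable thromboxane-A2 analog that stimulates Tbxa2r, for 24 h, so the comparison asks how cyclin mRNA differs with Gα13 under receptor stimulation and holds no unstimulated cells. There were 2 libraries per genotype, prepared from polyadenylated RNA. The labels describe the treatments as duplicates without saying whether the cultures were separate before treatment, so p-values measure only the spread between these libraries, which may be technical. Each library holds the RNA of a whole culture, so more cells in one phase of the cycle and more mRNA of a gene per cell cannot be told apart.

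The deposited totals of mapped reads lay between 29209544 and 31537955 per library. The targeted gene itself was not lower at the mRNA level: GNA13 measured 12.46 and 12.45 on the log2 scale under the control label and 13.10 and 13.11 under the GNA13-deficient label (adjusted p = 0.00214 from limma). An sgRNA edit changes the DNA and need not lower the mRNA, so these values check no label, and the genotypes are given below as labelled. Of 8 B cell markers, all had reads in every library and their summed level ranged from 76322 to 82036 normalized reads, although BCL6, a repressor that defines germinal center B cells, was lower by 2.49 on the log2 scale in the libraries labelled GNA13-deficient (adjusted p = 0.00085). The summed level of 10 markers of T, NK, myeloid, epithelial and fibroblast cells was 152 and 155 normalized reads in the libraries labelled control against 142 and 142, with CD3D, CD3E and KRT8 at 0 in all 4. GAPDH, a glycolytic enzyme often used for reference, had log2 values of 16.09 and 16.29 against 16.61 and 16.74, a difference of 0.49 that missed the threshold (adjusted p = 0.0502). It passed under most of the alternatives described at the end, so it is not read as unchanged. MYC, a transcription factor upstream of many cell cycle genes, had log2 values of 13.79 and 13.77 against 13.22 and 13.23 and fell by 0.55 (adjusted p = 0.00358).

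Of the 9 cyclins, 5 had more mRNA in the libraries labelled GNA13-deficient, 1 had less, and 3 did not pass the test. CCND3, CCNA2, CCNF, CCNE2 and CCNB1 rose between 1.51-fold and 2.46-fold, and CCNB2 fell 1.36-fold. The test was limma on the deposited log2 values, with a variance prior that follows the mean, with Benjamini-Hochberg adjustment over all genes tested and a threshold of 0.05. By that rule 66.7% of the cyclins were called, against 29.7% of all genes tested. That background includes genes with few reads. When only the 8473 genes with a mean at or above the median were tested, 4083 were called. Shares given below for other gene lists use the same 29.7% and were not matched for expression level. The genes called higher made up 13.1% of all genes tested and those called lower 16.6%. In 8 of the 9 cyclins the values of the genotypes did not overlap, which was also the case for 65.3% of all genes tested. With 2 libraries per genotype, leaving out any 1 library left no cyclin and no other gene past the threshold in limma, while 6 or 7 of the 9 cyclins kept an unadjusted p under 0.05 and all 9 kept their sign.

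**Figure D1:**
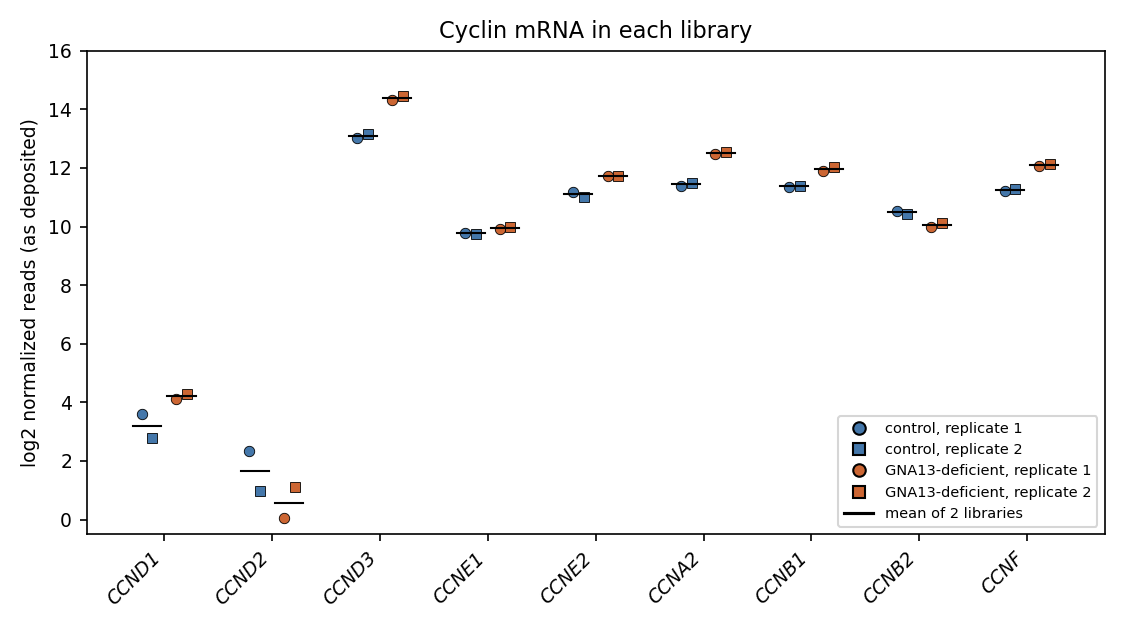
Deposited log2 normalized reads of the 9 cyclins in each library (y axis), with circles for replicate 1, squares for replicate 2, blue for control, orange for GNA13-deficient, and a line at the mean of 2 libraries. CCND3 lies highest, at 13.02 to 14.45, and CCND1 and CCND2 lie below 5; the orange points of CCND3, CCNE2, CCNA2, CCNB1 and CCNF lie above the blue ones and those of CCNB2 below.

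Among the D-type cyclins, nearly all of the mRNA was CCND3. It measured 13.02 and 13.15 on the log2 scale under the control label and 14.32 and 14.45 under the GNA13-deficient label, from 8163, 9258, 19918 and 20820 reads. Both of the latter libraries were higher, and the gap between genotypes, 1.17, was larger than the distance between replicates, 0.13 in each genotype. CCND3 was 2.46-fold higher (95% confidence interval 2.12 to 2.85; log2 difference 1.30, standard error 0.08, adjusted p = 0.00157 from limma). Among the 8473 genes whose mean reached the median over all genes tested, 22 had a larger rise. In GRCh37, the assembly that hg19 names, CCND3 lies on the minus strand of chromosome 6 from 41902672 to 42018095, and its reference transcript has 5 exons. The annotation also holds the pseudogenes CCND3P1 and CCND3P2, and it is not stated how reads shared with them were counted.

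CCND1 and CCND2, the other D-type cyclins, were at the edge of detection. CCND1 was counted with 12 and 7 reads under the control label and 17 and 18 under the other. The genotypes did not overlap, but the log2 difference of 1.00 had a 95% interval from -0.10 to 2.11 (adjusted p = 0.147 from limma), and the ratio of summed normalized reads was 1.93 with a counting interval of 1.08 to 3.58. Its exons share 497 bases with LTO1 on the opposite strand, a ribosome biogenesis gene listed under its older symbol ORAOV1 with 421 and 358 reads against 260 and 225. The kit marks strand but the use of strand in counting is not stated, so reads of the pair may be mixed. CCND2 was counted with 5 and 2 reads against 1 and 2, values that overlapped, with a ratio of 0.450 (counting interval 0.0751 to 1.97; adjusted p = 0.282 from limma). At these depths a difference of CCND2 was not detectable. The counting intervals cover counting error only, since reads without molecular identifiers are not independent molecules.

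Of the E-type cyclins, CCNE2 rose and CCNE1 did not pass the test. CCNE2 measured 11.17 and 11.02 on the log2 scale under the control label and 11.73 and 11.71 under the GNA13-deficient label. Both of the latter were higher, by at least 0.54, and the increase was 1.54-fold (95% interval 1.36 to 1.74; log2 standard error 0.07, adjusted p = 0.00432 from limma). CCNE1 had 9.78 and 9.75 against 9.91 and 10.00. The genotypes did not overlap, but the log2 difference of 0.19 (95% interval 0.02 to 0.36) missed the threshold, with an adjusted p of 0.0900 from limma. Centring each library on its median, which moves the median difference of all genes tested from -0.02 to 0.18, brought CCNE1 to 0.40 with an adjusted p of 0.0150. Exons of CCNE2, whose reference transcript has 2674 bases, share 1522 bases with those of INTS8 on the opposite strand, which encodes an Integrator subunit. As for CCND1, the use of strand in counting is not stated, so reads of this pair may be mixed. INTS8 had log2 values of 11.37 and 11.22 against 11.02 and 11.08 (log2 difference -0.25, adjusted p = 0.0597 from limma). CCNE1 lies on the plus strand of chromosome 19 from 30302898 to 30315219, and CCNE2 on the minus strand of chromosome 8 from 95891998 to 95908906, each with 12 exons in its reference transcript.

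Cyclin A2 and cyclin F both rose. CCNA2 measured 11.40 and 11.48 on the log2 scale under the control label and 12.49 and 12.56 under the GNA13-deficient label. The gap between genotypes was 1.01 where replicates differed by 0.08 and 0.07, and the increase was 2.12-fold (95% interval 1.91 to 2.35; log2 standard error 0.06, adjusted p = 0.00115 from limma). Of the 8473 genes above, 46 had a larger rise. CCNF had values of 11.22 and 11.29 against 12.06 and 12.15, both of the latter higher, a 1.81-fold increase (95% interval 1.62 to 2.01; log2 standard error 0.06, adjusted p = 0.00179). A larger rise than that of CCNF was found for 162 of these genes. Exons of CCNA2 share 254 bases with EXOSC9 on the opposite strand, a subunit of the RNA exosome that also rose, from 10.82 and 10.73 to 11.42 and 11.50 (log2 difference 0.69, adjusted p = 0.0030). Reads of this pair may be mixed as well. In GRCh37 CCNA2 lies on the minus strand of chromosome 4 from 122737599 to 122745038 and CCNF on the plus strand of chromosome 16 from 2479395 to 2508855.

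The B-type cyclins went in opposite directions. CCNB1, whose protein shuttles to the nucleus as mitosis starts, measured 11.36 and 11.39 on the log2 scale under the control label and 11.91 and 12.03 under the GNA13-deficient label. Both of the latter were higher, and the increase was 1.51-fold (95% interval 1.35 to 1.69; log2 standard error 0.06, adjusted p = 0.00389 from limma). CCNB2, whose protein is found mostly at the Golgi, had values of 10.53 and 10.44 against 9.97 and 10.11. Here both of the latter were lower, by a gap of 0.33 where replicates differed by 0.09 and 0.14, and the expression was 1.36-fold lower (log2 difference -0.44, 95% interval -0.64 to -0.25, standard error 0.08, adjusted p = 0.0145). CCNB2 had the highest adjusted p of the 6 calls. With median centring the log2 difference was -0.23 with an adjusted p of 0.0876, and without a filter on low values its adjusted p was 0.0915. CCNB1 lies on the plus strand of chromosome 5 from 68462962 to 68474072 and CCNB2 on the plus strand of chromosome 15 from 59397325 to 59417244. The annotation holds a pseudogene of CCNB2, CCNB2P1, whose shared reads cannot be assigned here.

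**Figure D2:**
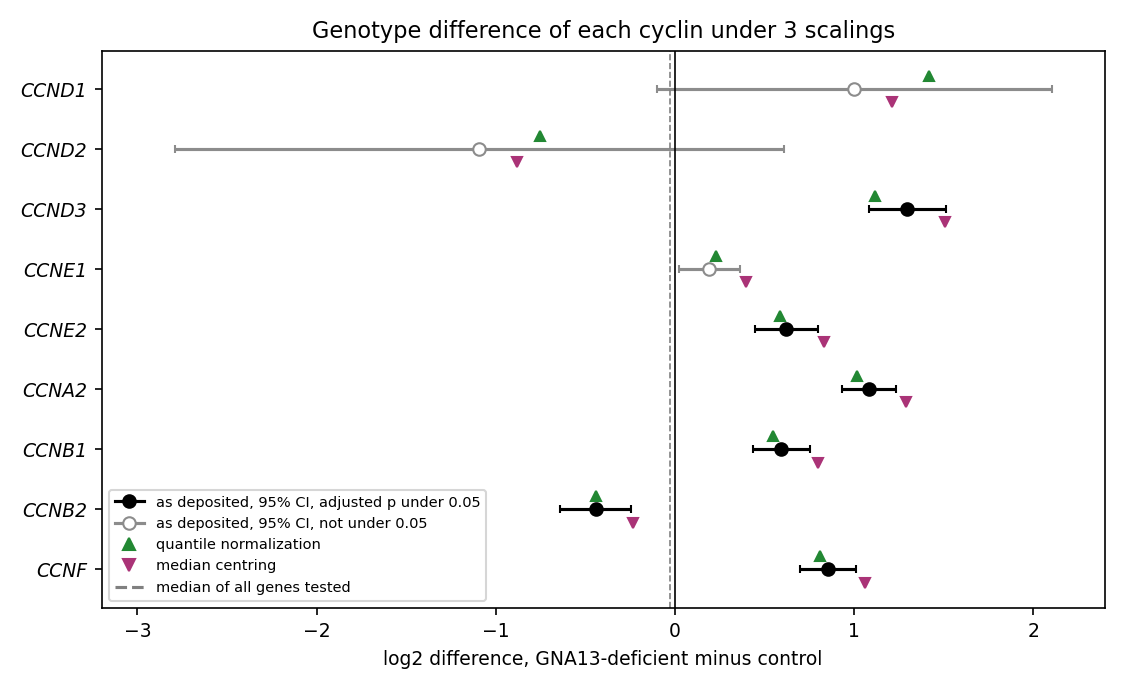
Log2 difference of each cyclin, GNA13-deficient minus control (x axis), with 95% confidence intervals as circles and bars for the values as deposited, and triangles for quantile normalization (up) and median centring (down). The dashed line marks the median of all genes tested, -0.02; CCNB2 lies left of 0 under all 3 scalings, and CCND3, CCNE1, CCNE2, CCNA2, CCNB1 and CCNF lie right of it.

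The ratio of 2 cyclins within a library is free of any constant factor that scales the library. The log2 ratio of CCNB1 to CCNB2 reads was 0.83 and 0.95 under the control label and 1.94 and 1.91 under the GNA13-deficient label, a change of 1.04. The ratio of CCNE2 to CCNE1 went from 1.39 and 1.28 to 1.81 and 1.72, and that of CCNA2 to CCNB1 from 0.04 and 0.08 to 0.58 and 0.53. CCND3 stood against CCNA2 at 1.62 and 1.68 and then at 1.83 and 1.90, the smallest change of the 6 ratios between cyclins, at 0.21. Quantile normalization, which does not scale by a constant, brought that change to 0.10 and left the other 7 ratios within 1.5 times of their change. In each of these the ratios were higher in both libraries labelled GNA13-deficient, with no overlap. The same was true for all 8 ratios computed, each with p = 0.333 by a two-sided exact permutation test, which is the smallest value that 2 against 2 libraries allow and was also 0.333 after adjustment over the 8. Every pair was written with the gene of larger difference first, and several genes recur. Their common direction therefore follows from the way the pairs were written.

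**Figure D3:**
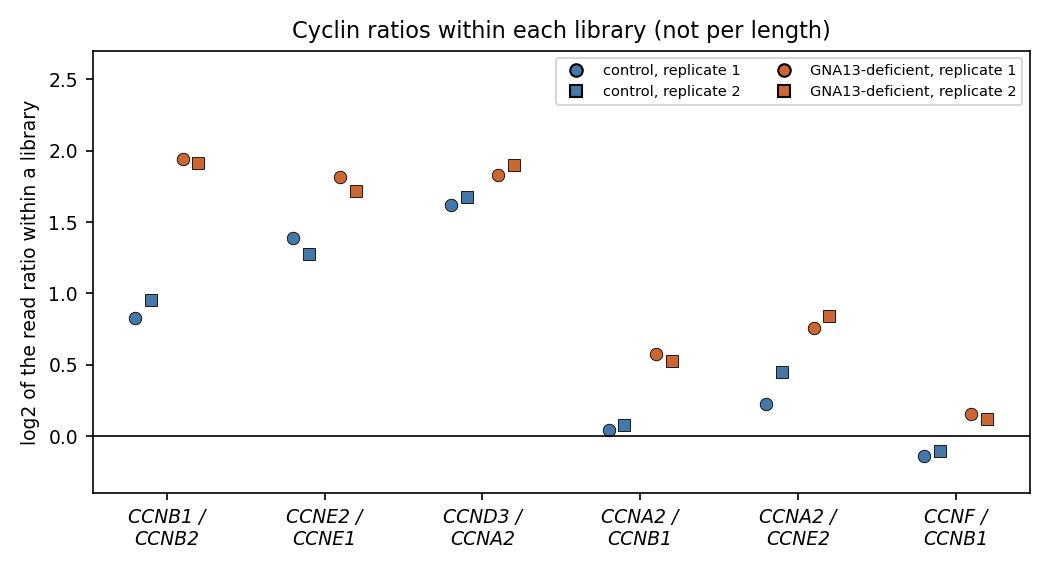
Log2 ratio of the reads of 2 cyclins within each library (y axis), not divided by transcript length, for 6 pairs, with blue for control, orange for GNA13-deficient, circles for replicate 1 and squares for replicate 2. The CCNB1 to CCNB2 ratio moved most, from 0.83 and 0.95 to 1.94 and 1.91.

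Promoter sequence of the S-phase and mitotic cyclins is shown because CCNA2, CCNB1, CCNB2 and CCNF are textbook targets of MuvB complexes and of NF-Y. MuvB complexes act through a CHR element and NF-Y binds CCAAT boxes. CCNB2 was lower while the others were higher, but its call was lost with median centring, without a filter on low values and without a variance trend. The stretches below are the 150 bases before the RefSeq start in GRCh38.p14, written 5′ to 3′ on the strand of the gene, with capitals for CCAAT (or ATTGG, its reverse complement) and for the CHR letters TTTGAA or CTTGAA or TTTAAA on either strand. They lie at chr4:121823884-121824033 on the minus strand for CCNA2 and, on the plus strand, at chr5:69167000-69167149 for CCNB1, chr15:59104996-59105145 for CCNB2 and chr16:2429297-2429446 for CCNF.
CCNA2: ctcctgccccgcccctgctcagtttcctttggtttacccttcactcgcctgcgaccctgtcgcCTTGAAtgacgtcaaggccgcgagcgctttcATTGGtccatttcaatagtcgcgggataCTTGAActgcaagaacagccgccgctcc
CCNB1: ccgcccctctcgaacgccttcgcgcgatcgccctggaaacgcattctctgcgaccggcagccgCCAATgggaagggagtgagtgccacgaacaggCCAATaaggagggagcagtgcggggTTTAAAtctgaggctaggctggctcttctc
CCNB2: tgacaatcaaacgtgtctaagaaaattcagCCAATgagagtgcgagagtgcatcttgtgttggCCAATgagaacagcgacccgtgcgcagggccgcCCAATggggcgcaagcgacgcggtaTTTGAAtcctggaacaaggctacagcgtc
CCNF: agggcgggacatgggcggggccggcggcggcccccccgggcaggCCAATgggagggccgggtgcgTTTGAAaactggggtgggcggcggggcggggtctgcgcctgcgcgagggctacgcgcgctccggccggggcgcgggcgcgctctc

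In the 250 bases before the start, the CCNB2 window held 4 CCAAT boxes, 3 of them evenly spaced at 120, 87 and 54 bases before the start, followed by TTTGAA at 29, with TTTAAA at 193. CCNB1 had CCAAT at 87 and 55 bases and TTTAAA at 30, nearly the same places as the last CCAAT boxes and the CHR letters of CCNB2. Whether these letters bear on the mRNA differences was not tested. CCNA2 had CTTGAA at 87 and 28 bases and the reversed CCAAT at 56. CCNF had CCAAT at 106 bases and TTTGAA at 85, with 3 more CCAAT boxes from 210 to 250 bases. CCND3 had 3 windows, of which 1 held a CCAAT box at 136 bases and 1 its reverse at 64, and CCNE1 held TTTAAA at 28. Of all 35116 windows, 32.0% held a CCAAT box on either strand, 9.53% held 2 or more and 2.93% held 3 or more, while TTTGAA was in 13.3%, CTTGAA in 9.52% and TTTAAA in 11.3%. These letters were chosen after the sequences were seen, and a match is a description and not a measured site. No window was matched for CCND1, CCND2 and CCNE2.

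Levels of different cyclins were compared as normalized reads per kilobase of the reference transcript. CCND3 was the highest in every library, with 4100 and 4496 under the control label and 10088 and 11055 under the GNA13-deficient label, and it made up at least 99.9% of the D-type level in each. Its share of the summed level of the 9 cyclins was 44.3% and 46.8% in the former and 57.5% and 58.5% in the latter. The share of CCNA2 was 10.6% and 10.8% against 11.9% and 11.6%, while that of CCNB2 was 10.7% and 9.72% against 3.86% and 3.94%. Shares are parts of a fixed whole, so a larger share of CCND3 leaves less for the others. The share of CCNB1 also fell, from 14.0% and 13.8% to 10.8% and 10.9%. Those of CCNE1, CCNE2 and CCNF fell too, although all of these had higher levels per kilobase.

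The order of the levels in the libraries labelled control was CCND3, CCNB1, CCNA2, CCNB2, CCNE2, CCNF, CCNE1, CCND1 and CCND2. There CCNA2, at 983 and 1036 reads per kilobase, and CCNB2, at 994 and 934, overlapped, and the ranges of the other neighbors did not. In the libraries labelled GNA13-deficient CCNA2 stood second at 2089 and 2190, ahead of CCNB1 at 1899 and 2055, and CCNB2 stood below CCNF, at 676 and 744. No neighbors overlapped there. CCNE1, at 439 to 523 over the 4 libraries, was the lowest of the cyclins above 5 reads per kilobase in both genotypes. These levels rest on 1 transcript per gene, so a cyclin expressed from a shorter or longer form would be placed higher or lower. Reads mixed with an overlapping gene, as may occur for CCNE2, could also shift its place.

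**Figure D4:**
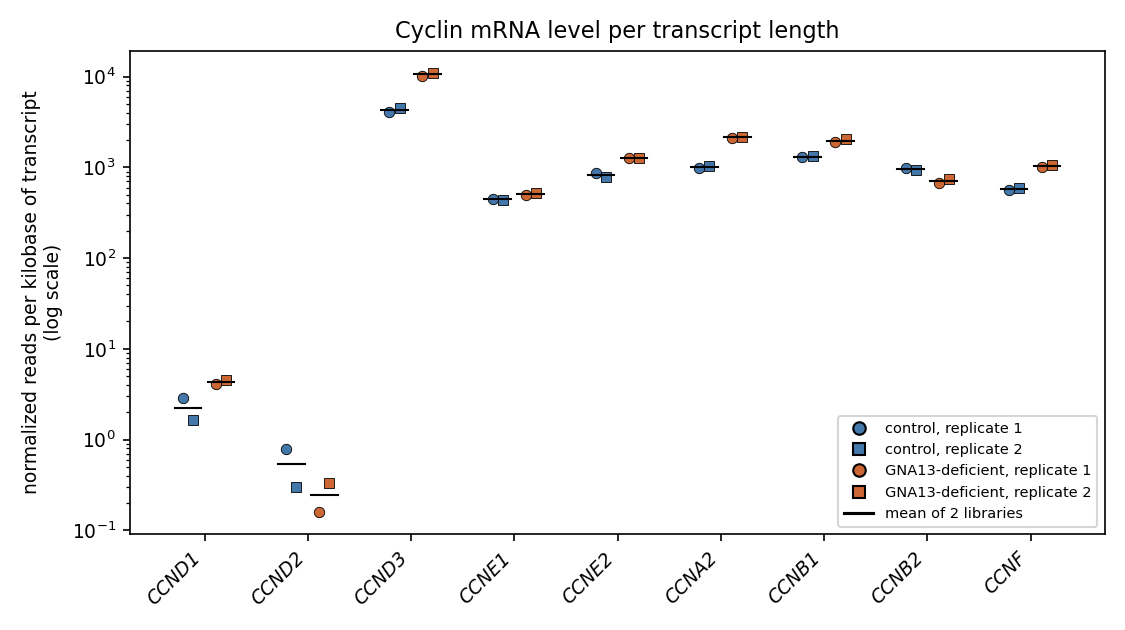
Normalized reads per kilobase of reference transcript (y axis, log scale) of each cyclin in each library, with circles for replicate 1, squares for replicate 2, blue for control, orange for GNA13-deficient and a line at the mean. CCND3 is highest in all 4 libraries, and CCNB2 overlaps CCNA2 in the control libraries but lies at 676 and 744 in the others.

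The 4 kinases that the cyclins activate were all called, against 29.7% of all genes tested. CDK1, listed under its older symbol CDC2, is the partner of the B-type cyclins and had log2 values of 11.71 and 11.80 against 12.41 and 12.53 (difference 0.72, standard error 0.07, adjusted p = 0.00313 from limma). CDK2, the partner of cyclins E and A, had 11.59 and 11.66 against 12.31 and 12.41 (difference 0.74, adjusted p = 0.00252). Of the partners of the D-type cyclins, CDK6 was lower, at 12.41 and 12.57 against 11.77 and 11.62 (difference -0.80, standard error 0.09, adjusted p = 0.00435), and CDK4, named after its values were seen, was higher by 0.61 (standard error 0.10, adjusted p = 0.0135). The log2 ratio of CCND3 to CDK6 reads was 0.61 and 0.58 under the control label and 2.55 and 2.84 under the other, a change of 2.10, and that of CCND3 to CDK4 changed by 0.69.

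Of 10 genes that switch CDK activity, 6 rose, none fell and 4 were not called, 60% against 29.7% of all genes tested, with a median log2 difference of 0.38 against -0.02 over all genes tested. The largest were PKMYT1, a kinase that inhibits CDK1, which rose by 1.04 (9.54 and 9.61 against 10.58 and 10.64, adjusted p = 0.00151), CKS1B, a small subunit that binds CDKs, by 1.01 (adjusted p = 0.00495), and CDC25A, a phosphatase that activates CDKs, by 0.88 (adjusted p = 0.00129). The 6 called members held inhibitors as well as activators of CDKs. Of 10 CDK inhibitors and pocket proteins, 3 rose, none fell and 7 were not called, a share of 30% that was close to the 29.7% of all genes tested. RBL1, the pocket protein p107, rose by 0.96 (9.83 and 9.76 against 10.79 and 10.72, adjusted p = 0.00159), CDKN2C, an inhibitor of CDK4 and CDK6, by 0.71 (adjusted p = 0.00222), and CDKN1B, the inhibitor p27, by 0.31 with an adjusted p of 0.0496, a call that was lost without a filter on low values (0.202) and without a variance trend (0.156).

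Of 25 genes of cyclin turnover, 10 rose, 1 fell and 14 were not called, 44% against 29.7% of all genes tested, with a median of 0.10. The 29.7% is not matched for expression level, so an excess over it was not tested. When only the 8473 genes with a mean at or above the median were tested, 4083 were called, so no excess is read from the 44%. The list holds ubiquitin ligase subunits together with their regulators, among them kinases that prime cyclins for degradation and FBXO5, an inhibitor of the anaphase-promoting complex that was among the 10 and was named after its value was seen (difference 0.58, adjusted p = 0.00413). CDC20, which directs the anaphase-promoting complex to the B-type cyclins, rose by 0.84 (11.25 and 11.41 against 12.10 and 12.24, adjusted p = 0.00337). SKP2, the F-box protein that removes p27, rose by 0.72 (adjusted p = 0.00332) and UBE2S, a ubiquitin-conjugating enzyme of the anaphase-promoting complex, by 0.59 (adjusted p = 0.00755). The 1 that fell was ANAPC1, the largest scaffold subunit of that complex, by 0.49 (adjusted p = 0.00485); it is named after its value was seen. All 6 listed substrates of cyclin F rose, where 13.1% of all genes tested were called higher, with a median of 0.74. RRM2, a subunit of ribonucleotide reductase, rose by 1.09 (13.04 and 13.12 against 14.12 and 14.21, adjusted p = 0.00157), EXO1, a repair exonuclease, by 0.85 (adjusted p = 0.00155), and NUSAP1, a spindle protein, by 0.77 (adjusted p = 0.00215). Cyclin F acts on the proteins, and only mRNA was measured here.

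Of 10 genes of the MuvB, MYBL2, FOXM1 and NF-Y group, 5 rose, none fell and 5 were not called, 50% against 29.7% of all genes tested, with a median of 0.34. Here too the background is not matched for expression level. Of the 8473 genes with a mean at or above the median, 4083 were called when tested alone, so no excess is read from the 50%. MYBL2, the B-MYB subunit that joins MuvB in S phase, rose by 1.14 (13.58 and 13.73 against 14.77 and 14.83, adjusted p = 0.00181), FOXM1, the transcription factor that follows it in G2, by 0.99 (adjusted p = 0.00157), and LIN9, a core MuvB subunit, by 0.58 (adjusted p = 0.0149). The NF-Y subunits NFYA, NFYB and NFYC had adjusted p from 0.0569 to 0.537. The medians of these lists, all above 0, stayed above 0 under quantile normalization.

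**Figure D5:**
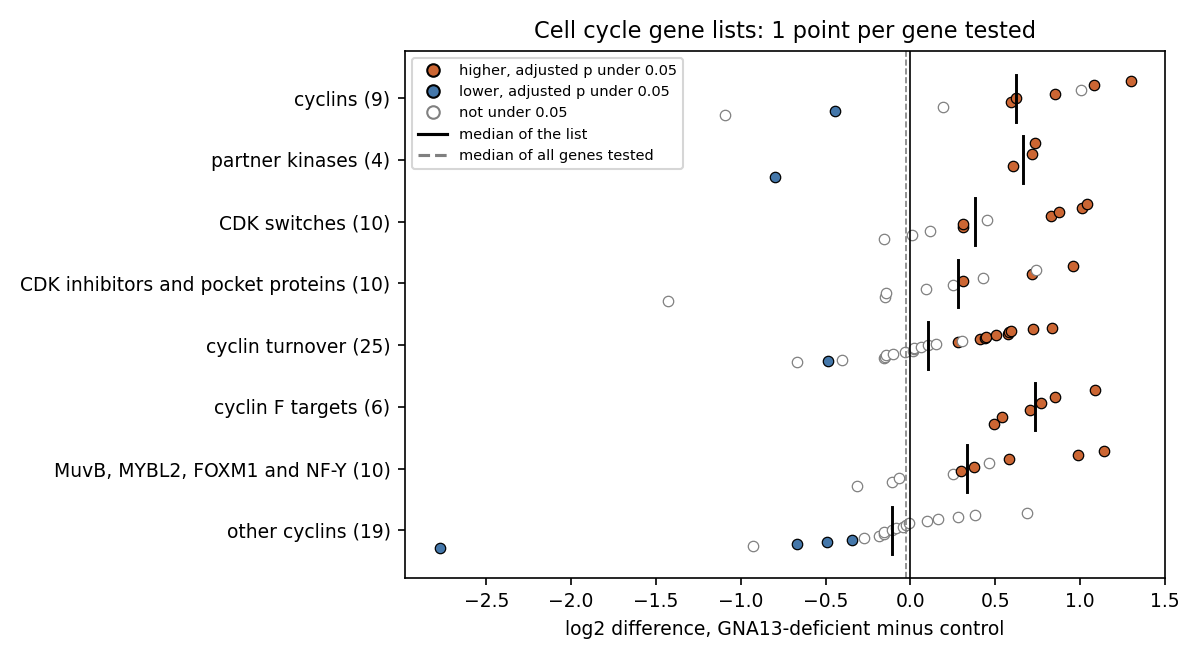
Log2 difference, GNA13-deficient minus control (x axis), of each gene tested in 8 lists of cell cycle genes, with the number tested in parentheses, orange and blue for genes called higher and lower, white for genes not called, and a bar at the median of each list. The medians of the cyclins, partner kinases and cyclin F substrates lie at 0.62, 0.66 and 0.74, and that of the other cyclins at -0.11, beside -0.02 for all genes tested (dashed).

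The genes most like CCND3 over the 4 libraries were found by the root-mean-square distance between log2 values centred on each gene's mean, over 8466 other genes with a mean at or above the median. They were GGH, a γ-glutamyl hydrolase, at a distance of 0.07, C4orf34 at 0.08 and GBP1, a guanylate-binding protein, at 0.08. GGH had values of 9.44 and 9.60 against 10.58 and 10.79, a difference of 1.17. Nearest to the mean profile of CCNA2, CCNB1, CCNB2 and CCNF were GPR183, a receptor that positions B cells, at a distance of 0.0054, the splicing factor gene USP39 at 0.0059 and SUMO2, a ubiquitin-like modifier, at 0.0085. GPR183 had values of 9.20 and 9.23 against 9.68 and 9.79. The mean profile combines log2 differences of 1.08 for CCNA2, 0.59 for CCNB1, -0.44 for CCNB2 and 0.85 for CCNF. It is therefore not the profile of any 1 of them. Over only 4 libraries and 8466 genes searched, a small distance alone shows no link between genes.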

How the data were processed

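RNA sequencing of 4 NUDUL1 libraries was analyzed. The authors used STAR and the hg19 genome for alignment and deposited normalized reads of 25066 genes as log2 values, with a first row of linear totals used only for depth; the submitters' processing notes also name HTSeq, and the method of normalization is not given in the sources used here. Values of low genes stepped in whole reads, which were recovered (100% of values up to 400 reads came out whole). In the second control library a single read is listed as 0.

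Genes above 0 in at least 2 libraries were fitted with limma 3.58.1 in R 4.3.3 (lmFit, eBayes with trend, genotype only, 2 residual degrees of freedom), two-sided, with Benjamini-Hochberg adjustment and a threshold of 0.05. Transcript lengths and positions were from GENCODE v44 on GRCh37 and promoters from RefSeq. The fit was tested on simulated data.

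The cyclins and all gene lists, written from general knowledge, were chosen with earlier results of these data known. The text names the 9 cyclins, GNA13, GAPDH, MYC, the 3 called members of each list with the largest absolute difference, and the 3 genes nearest to 2 profiles; other names were chosen after their values were seen. 1 gene named by this rule is not reported here. CDK1 and CCP110 were matched through older symbols. Alternatives were 2 filters, pseudocounts of 1 and 10, 2 scalings, a replicate block, 2 variance models, limma's voom on recovered reads and leaving out each library. The simulated data and the counting intervals cover no biological spread between cultures.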

Additional observations from a re-analysis of the deposited data

How the results depend on the processing

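All 9 cyclins kept the sign of their difference under every alternative run that tested them. The number of genes called, 5037, was 1999 without a filter on low values and 2718 without a variance trend, and ranged from 4083 to 6616 under the other alternatives with all 4 libraries; cyclins called ranged from 4 (no filter) to 7 (quantile normalization). CCND1 passed with quantile normalization (1.42, adjusted p = 0.0447) and CCNE1 with median centring (0.40). Without a filter, CCNE2 missed the threshold (0.62, adjusted p = 0.0516), as did CCNB2 (-0.44, adjusted p = 0.0915). CCNB2 also missed it with median centring (-0.23) and without a variance trend (-0.44, adjusted p = 0.0732). For CCND3, CCNA2, CCNB1 and CCNF the calls held in all 10 of these alternatives. Of the 21 called genes named in the report from the 6 lists of other cell cycle genes, 7 missed the threshold without a filter: CDC20 (adjusted p = 0.0538), CDK6 (0.0638), CKS1B (0.0769), LIN9 (0.0784), UBE2S (0.0803), CDK4 (0.116) and CDKN1B (0.202). Without a variance trend 4 of them missed it, CDK4, CDKN1B, LIN9 and UBE2S. The share of calls that were higher was 44.03% as deposited, 51.8% with quantile normalization and 69.1% with median centring. GAPDH, not called as deposited, passed under most alternatives with all 4 libraries, among them quantile normalization (adjusted p = 0.0110 from limma) and median centring (0.0314). It missed the threshold without a filter (0.479) and without a variance trend (0.0872).

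Leaving out 1 library left a genotype with 1 library, whose spread was assumed to be that of the other. No gene and no cyclin was then called (0 in each of the 4 fits, lowest adjusted p 0.0708 to 0.0790, with 5257 to 5600 genes at an unadjusted p under 0.05 in limma). Differences ranged from 1.23 to 1.37 for CCND3, 0.55 to 0.70 for CCNE2, 1.05 to 1.12 for CCNA2, 0.54 to 0.65 for CCNB1, -0.51 to -0.37 for CCNB2 and 0.81 to 0.90 for CCNF.

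The labels number the replicates 1 and 2 in both genotypes, but nothing says that a number marks a shared culture or day. Deviations from the genotype mean correlated at 0.453 between libraries of the same number over 8473 genes. With the replicate number as a block, 6616 genes and 6 cyclins were called, and the block changed no cyclin's call. Below about 20 reads, as for CCND1 and CCND2, depth limits what can be seen.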

Other observations

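Of 21 other cyclins, 19 were tested, and none rose, 4 fell and 15 were not called, 21.1% against 29.7% of all genes tested. CCNG2, a cyclin known to accumulate in cells that leave the cycle, measured 9.46 and 9.37 on the log2 scale under the control label and 8.81 and 8.69 under the GNA13-deficient label, a fall of 0.67 (adjusted p = 0.00682 from limma). CCNC, the cyclin of the Mediator kinase module, had 10.90 and 11.004 against 10.29 and 10.64 (difference -0.49, adjusted p = 0.0454) and was not called with median centring (-0.28), without a filter on low values (adjusted p = 0.242) or without a variance trend (adjusted p = 0.143). CCNY, a membrane-bound cyclin named after its value was seen, had a difference of -0.34 (adjusted p = 0.0133 from limma) and was not called with median centring. CCNB3, a cyclin known mainly from meiosis, was counted with 8 and 12 reads against 2 and 0, and was not called without a filter (adjusted p = 0.107). The median difference of the list was -0.11 as deposited and 0.10 with median centring, under which 2 members were called higher and 2 lower. CCNH, the partner of CDK7, is in this list and among the genes that switch CDK activity, and was not called (adjusted p = 0.231).

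Markers of other cell types were not all flat at their low levels. LYZ, a myeloid gene that some B cells also transcribe, had log2 values of 6.40 and 6.35 against 3.50 and 4.19 (adjusted p = 0.00759 from limma), and EPCAM, an epithelial marker, had 5.24 and 5.50 against 6.50 and 6.71 (adjusted p = 0.0185), and neither was called without a filter. Among the B cell markers MS4A1, which encodes CD20, fell by 0.57 (adjusted p = 0.00477), while 5 of the 8 were not called.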
